A study of Mus musculus with 46 samples.

Results

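The amino acid transporters described here are 8 plasma membrane proteins of mouse cells, *Slc7a11*, *Slc3a2*, *Slc7a5*, *Slc7a1*, *Slc7a6*, *Slc38a2*, *Slc1a5* and *Slc1a4*. They were chosen by gene symbol, and all 8 were found among the 9857 symbols that were listed once in the tables of both treatments. EPP2 cells, a mouse pancreatic cancer line with doxycycline-inducible Cas9, either carried guide RNAs against *Ctu1* (Ctu1 iKO, genotype Ctu1KO) or were controls (genotype WT). According to the treatment protocol, knockout was induced with 300 ng/ml doxycycline 4 days before the experiment, and cells then received 300 nM torin 1, an inhibitor of mTOR kinase, or the solvent DMSO for 2 h. Ribosome footprints and polyadenylated RNA were sequenced, which gave 6 footprint libraries for control DMSO, 5 for Ctu1 iKO DMSO, 6 for control torin 1 and 6 for Ctu1 iKO torin 1. Poly(A) RNA-seq was used from replicates 1 to 3 of each group. The study's methods name guide RNAs against non-coding regions and cells without doxycycline as controls and do not say which served here. The EPP2 line of the study's screen came from 1 single cell-derived clone, so all groups model that line alone. The study's methods call the profiling replicates biologically independent and speak of a pair made on successive days. They do not say which of the numbered libraries these were, and p-values measure the spread between libraries.

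Cells take up amino acids through carriers with overlapping substrates. *Slc3a2* encodes CD98, a heavy chain that brings light chains of the *Slc7* family to the cell surface, among them *Slc7a5* (LAT1, large neutral amino acids including leucine), *Slc7a6* (exchange of cationic for neutral amino acids) and *Slc7a11* (xCT, cystine in exchange for glutamate). *Slc7a1* (arginine and lysine), *Slc38a2* (sodium-coupled uptake of small neutral amino acids), *Slc1a5* (glutamine and other neutral amino acids) and *Slc1a4* (alanine, serine, cysteine and threonine) work without it. Imported leucine and arginine are inputs to mTORC1, and several of these genes are known targets of ATF4, the transcription factor of the amino acid stress response. Ctu1 is part of the enzyme that adds sulfur to the wobble uridine of tRNAs reading AAA, CAA and GAA codons.

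Footprint libraries held 4602092 to 52907878 counts, with group medians from 10582524.5 in Ctu1 iKO torin 1 to 26312873.5 in control DMSO, so depth moved with the groups. Each transporter had at least 305 footprint counts in every library and at least 4174 RNA counts. RNA libraries of replicates 1 and 2 held at most 158915842 counts and those of replicates 3 to 6 at least 214922186. Transporter levels separated along the same line, as given below. Treatment and genotype axes were drawn from the labelled group means of replicates 1 to 3. Against them 6 of 11 RNA libraries of replicates 4 to 6 lay on the wrong side of a label, and 0 of 11 footprint libraries. Of replicates 1 to 3, 0 of 12 did in each assay, but these libraries made the axes, so this does not check their labels. *Ctu1* was listed with DMSO only, at 1.58 to 3.43 footprint CPM (counts scaled to TMM-adjusted library size) in control and 1.30 to 2.28 in Ctu1 iKO (log2 change -0.54 ± 0.29, edgeR adjusted p = 0.353), and its RNA did not separate the genotypes (0.02 ± 0.11, adjusted p = 0.926). Cas9 directed by the guides edits DNA, and neither value checks that edit. Of the 9 epithelial markers 4 were listed (*Krt8*, *Krt18*, *Krt19* and *Sox9*, but neither *Epcam* nor *Cdh1*), and of the 8 mesenchymal markers 6, led by *Vim*. The summed mesenchymal markers ranged from 2949 to 2996 RNA CPM in control DMSO and from 5475 to 5842 in Ctu1 iKO torin 1, and the 4 epithelial markers from 294.5 to 311.7 and from 534 to 602. In footprints the same sums ran from 4252 to 5546 CPM in control DMSO and from 2709 to 4921 in Ctu1 iKO torin 1 for the mesenchymal markers, and from 301.7 to 380.4 and from 412.5 to 513.1 for the epithelial ones. None of the 4 leukocyte, 3 endothelial, 3 acinar and 3 endocrine markers was listed. The part of these shifts in the transporter values was not tested.

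The promoters of *Slc7a11* and *Slc1a4* are shown because they hold the letters TGATGNAA, a core to which ATF4 binds together with C/EBP proteins, while neither gene was called higher below in the edgeR fit of all libraries without a block. RefSeq (GRCm38.p6) gave 8 promoters of 300 bases, from 250 bases before to 50 after the transcription start, for 6 of the 8 transporters. Capitals mark TGATGNAA on either strand (a match on the reverse strand is printed as its reverse complement), and each sequence runs 5′ to 3′ along its gene.
Slc7a11, chr3:50443564-50443863, minus strand: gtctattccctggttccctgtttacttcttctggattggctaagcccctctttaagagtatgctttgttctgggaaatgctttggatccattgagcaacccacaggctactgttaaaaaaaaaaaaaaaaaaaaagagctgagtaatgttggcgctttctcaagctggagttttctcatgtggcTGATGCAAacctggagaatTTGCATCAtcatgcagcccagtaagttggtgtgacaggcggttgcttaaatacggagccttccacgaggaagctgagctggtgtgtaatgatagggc
Slc1a4, chr11:20332664-20332963, minus strand: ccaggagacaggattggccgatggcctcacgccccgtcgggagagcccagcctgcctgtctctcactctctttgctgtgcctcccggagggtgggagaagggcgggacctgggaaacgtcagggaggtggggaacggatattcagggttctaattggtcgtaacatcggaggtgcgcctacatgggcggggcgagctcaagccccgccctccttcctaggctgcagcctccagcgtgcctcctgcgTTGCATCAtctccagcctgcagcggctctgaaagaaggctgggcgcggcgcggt
In *Slc7a11* the 2 matches faced each other, at -66 to -59 and at -47 to -40 counted from 0 at the annotated start. In *Slc1a4* the single match, on the reverse strand, ran from -4 to 3. The same letters stood in 1304 of 32851 mouse promoters (3.97%) and in those of 13 of 32 genes of a list of ATF4 targets. No other transporter promoter in the table held TGATGNAA, and none held TGACGTCA (1.79% of all promoters) or CACGTG (7.15%), which says only that these letters are not in these windows.

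On GRCm38 the genes lie on chromosomes 3 (*Slc7a11*, 49892526 to 50443614), 19 (*Slc3a2*, 8706882 to 8723369), 8 (*Slc7a5*, 121881150 to 121907694, and *Slc7a6*, 106168857 to 106198706), 5 (*Slc7a1*, 148327410 to 148399904), 15 (*Slc38a2*, 96687392 to 96699730), 7 (*Slc1a5*, 16781340 to 16798274) and 11 (*Slc1a4*, 20302180 to 20332713). GENCODE M21 places 1 other protein-coding gene model over *Slc7a5*, on the opposite strand, and 5 other models over *Slc7a11*, of which 4 are antisense or pseudogene models and 1, on the same strand, awaits experimental evidence in the annotation. The sources used here do not say whether counting used strand, so reads of such pairs may not be told apart. The coding sequences were short and alike in length, from 502 codons in *Slc7a11* to 622 in *Slc7a1*. All 8 had fewer Ctu1-dependent codons (AAA, CAA and GAA together) than the median gene. Their share of codons ran from 1.17% in *Slc7a5* to 5.18% in *Slc7a11*, against a median of 6.13% over 9592 genes, the 97.3% of symbols with a matched coding sequence. *Slc7a5* had no AAA codon among its 512, and *Slc38a2* had 0.595%, against a median of 2.19%.

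In control cells with DMSO *Slc3a2* was the most abundantly translated of the 8. It had 245 ± 19.4 footprint CPM per kilobase of coding sequence (SD, n = 6), above 93% of genes. *Slc7a11* (126 ± 7.65), *Slc38a2* (114 ± 13.7), *Slc7a1* (98.4 ± 15.1) and *Slc7a6* (90.8 ± 10.7) followed, and each of these overlapped its neighbour in this order. *Slc7a5* (61.4 ± 7.55) lay below the range of *Slc7a6*. *Slc1a5* (32.4 ± 3.24) and *Slc1a4* (29.9 ± 5.44) came last and overlapped each other. Every library of the heavy chain was above all libraries of its light chains among the 8. Torin 1 put *Slc38a2* (137 ± 23.5) ahead of *Slc7a11* (133 ± 12.2) by means only, their ranges overlapping. In Ctu1 iKO cells with torin 1 *Slc7a6* had gone to 46.3 ± 8.7, overlapping the range of *Slc7a5* (39.0 to 76.4).

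Poly(A) RNA gave another order. *Slc3a2* again led with 136 ± 7.79 CPM per kilobase of transcript (SD, n = 3), and *Slc7a5* came second with 53.4 ± 5.17. *Slc7a6* (31.6 ± 3.11), *Slc38a2* (26.7 ± 1.70), *Slc7a1* (23.9 ± 3.72), *Slc1a5* (17.3 ± 0.922) and *Slc1a4* (11.8 ± 1.56) followed. *Slc38a2* met *Slc7a6* at 28.4 and overlapped *Slc7a1*. *Slc7a11* was last with 4.13 ± 0.446, above 21.5% of genes, although it was second in footprints. Footprints per coding length over RNA per transcript length put *Slc7a11* above 98.8% of 9384 genes, with a log2 ratio of 4.88 ± 0.179 (SD, n = 3) against a median of 0.63, and *Slc7a5* above 36.3% with 0.27 ± 0.0846. The length of the annotated *Slc7a11* transcript, 9223 bases, enters this ratio. Without any length, the log2 ratio of CPM was 2.26 for *Slc7a11*, above 98.1% of genes, and -0.92 for *Slc7a5*, above 25.4%.

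**Figure D1:**
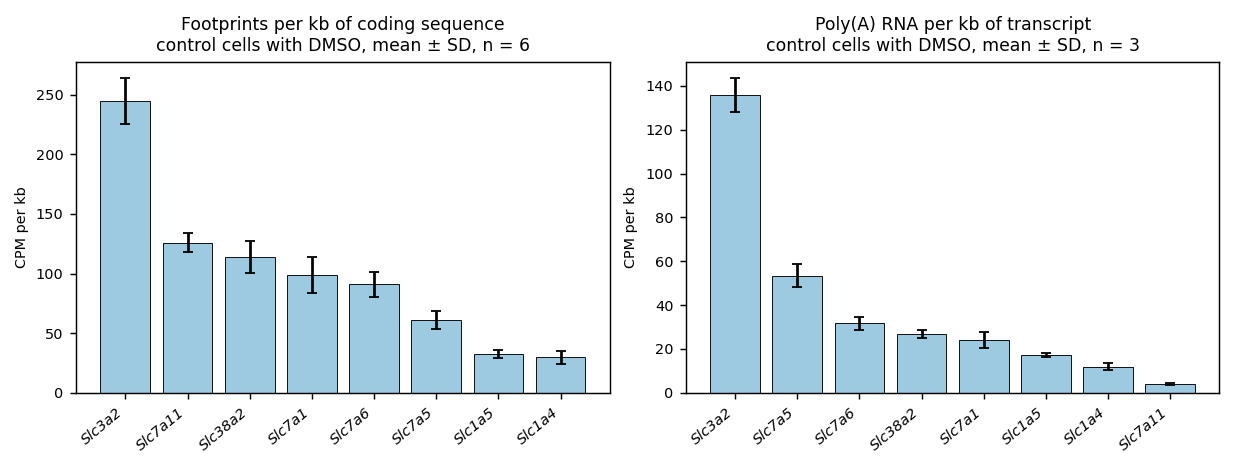
Levels of the 8 transporters per length in control cells with DMSO. Bars are means and lines SDs, of 6 footprint libraries on the left (CPM per kilobase of coding sequence) and of 3 RNA libraries on the right (per kilobase of transcript), each ordered from high to low. *Slc3a2* is highest in both, and *Slc7a11* is second in footprints and last in RNA.

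In footprints *Slc7a6* had the largest fitted change in size of the 8 in each of the 4 comparisons over all libraries, and it was lowest where Ctu1 loss and torin 1 were combined. Its footprints ran from 124.9 to 164.7 CPM in control DMSO, with a median of 137. In Ctu1 iKO DMSO the 5 libraries had 128, 107, 100.5, 89.0 and 95.5 CPM. In control torin 1 they ran from 95.6 to 126.5 with a median of 98.7, and in Ctu1 iKO torin 1 from 53.7 to 86.2 with a median of 73.6. The combined group lay wholly below each of the single ones, and both single groups overlapped control DMSO by their highest library alone. For background, groups did not overlap in 8.16% of genes for torin 1 in Ctu1 iKO and in 4.31% for Ctu1 loss with torin 1, and in 5.44% and 4.62% for the other two comparisons.

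Torin 1 lowered *Slc7a6* footprints in control cells, from a mean of 140.3 to 103 CPM (log2 change -0.45 ± 0.12, edgeR adjusted p = 0.02), where 6.91% of genes were called. In Ctu1 iKO cells the mean went from 104 to 71.5 CPM (-0.54 ± 0.12, adjusted p = 0.00432), where 12% were called. Ctu1 loss lowered it with torin 1 (-0.53 ± 0.12, adjusted p = 0.00556, background 8.54%). With DMSO its log2 change was -0.43 ± 0.12 with an adjusted p of 0.0616 (background 2.76%), and DESeq2 called it (adjusted p = 0.0211). The torin 1 effects in the 2 genotypes differed by -0.10 ± 0.17 (adjusted p = 0.9998). In replicates 3 to 6 alone the changes with torin 1 in control, torin 1 in Ctu1 iKO, Ctu1 loss with torin 1 and Ctu1 loss with DMSO were -0.46, -0.55, -0.60 and -0.52, all called where 7.94%, 11.5%, 9.39% and 4.56% of genes were, and in replicates 1 and 2 alone -0.40, -0.48, -0.42 and -0.34, none called where 1.22%, 2.41%, 0.834% and 0% were. The call for torin 1 in control was lost without control DMSO replicate 1 (adjusted p = 0.0513) or replicate 4 (0.0684), and with scaling by library totals (log2 change -0.35, adjusted p = 0.0588), which moves the median of all genes there to 0.10. Replicates 1 to 3 alone called none of the 3 changes called over all libraries (adjusted p = 0.647 and 0.13 for torin 1 in control and in Ctu1 iKO, 0.23 for Ctu1 loss with torin 1).

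*Slc7a6* RNA moved with its footprints. The 3 libraries had 119, 129.8 and 106.5 CPM in control DMSO, 99.7, 99.6 and 83.4 in Ctu1 iKO DMSO, 88.1, 87.5 and 77.9 in control torin 1, and 76.35, 68.7 and 55.6 in Ctu1 iKO torin 1. Each group was below control DMSO in all 3 replicates, and each of the 4 comparisons separated its 2 groups, as they did in 33.1%, 30.4%, 31.7% and 26.4% of genes for torin 1 in control, torin 1 in Ctu1 iKO, Ctu1 loss with DMSO and Ctu1 loss with torin 1. In bulk RNA, fewer expressing cells and less RNA per cell cannot be told apart. Torin 1 lowered the RNA in control cells (-0.49 ± 0.12, adjusted p = 0.0235, background 11.8%) and in Ctu1 iKO cells (-0.49 ± 0.12, adjusted p = 0.0165, background 17.9%). The first call was lost in 5 of 12 fits without 1 library (without control DMSO replicates 1 and 2 and without each control torin 1 replicate, adjusted p from 0.0604 to 0.118) and the second in 2 of 12 (without Ctu1 iKO DMSO replicate 1 or 2, 0.0558 and 0.0585), and the second also in the fit of its 2 groups alone (0.0652). With Ctu1 loss the change was -0.33 ± 0.12 with DMSO (adjusted p = 0.131) and -0.34 ± 0.12 with torin 1 (0.102). With the replicate number as a block, used because same-numbered RNA libraries correlated, all 4 changes of *Slc7a6* RNA were called (-0.49, -0.50, -0.33 and -0.34, adjusted p at most 0.00223).

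**Figure D2:**
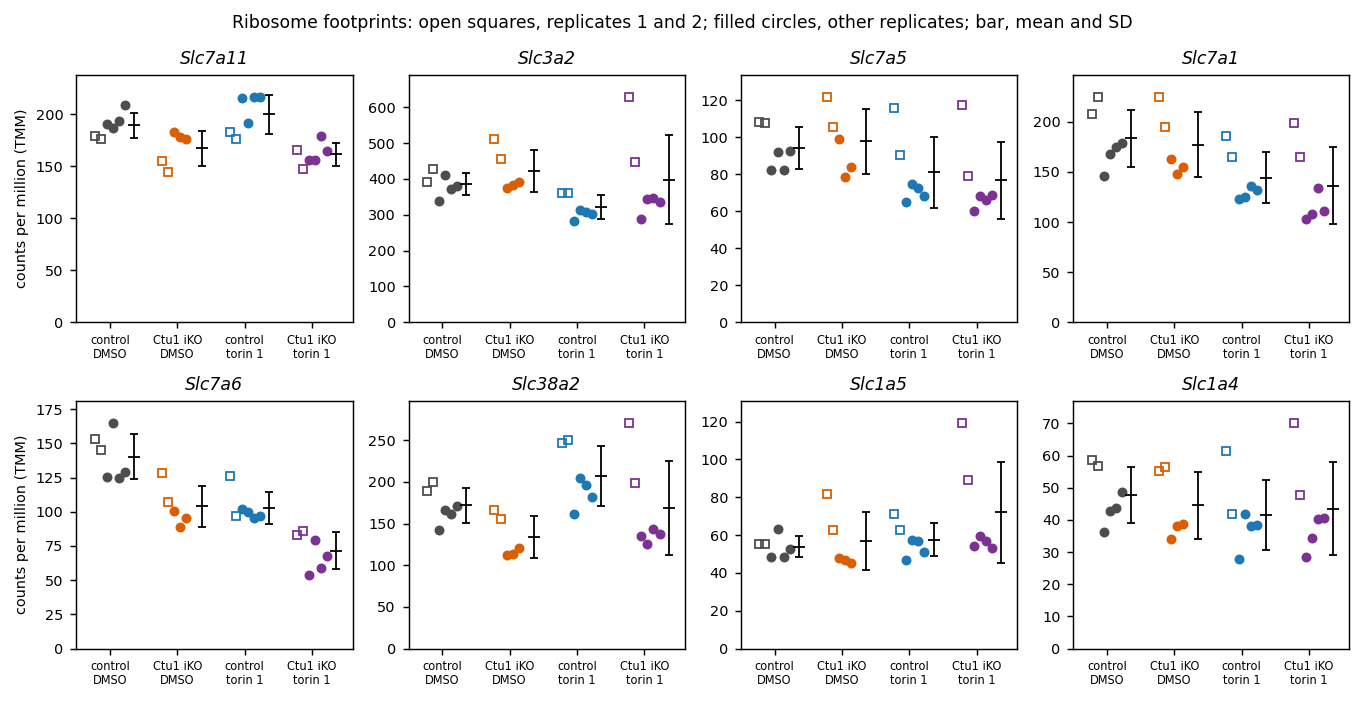
Ribosome footprints of each transporter by library, in CPM on axes that start at 0. Open squares are replicates 1 and 2, filled circles the other replicates, and the black bar is the mean with its SD of 6 libraries (5 for Ctu1 iKO DMSO). *Slc7a6* is lowest in Ctu1 iKO torin 1 (53.7 to 86.2), and open squares lie high in most panels but not in that of *Slc7a11*.

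*Slc3a2*, the CD98 heavy chain, was the 1 transporter called higher in the edgeR fit of all libraries without a block. Its RNA had 232, 221 and 213 CPM in control torin 1 and 340.4, 313 and 254 in Ctu1 iKO torin 1, with no overlap. It rose by 0.45 ± 0.10 on the log2 scale (edgeR adjusted p = 0.0221, background 10.1%), and 4 of 12 leave-one-out fits did not call it (without control torin 1 replicate 2 or 3, Ctu1 iKO torin 1 replicate 1 or 2, adjusted p from 0.0689 to 0.0848), nor did the fit of these 2 groups alone (0.105). With DMSO the 3 values were 255, 254 and 230.2 in control and 330.2, 318 and 284 in Ctu1 iKO, also without overlap, with a log2 change of 0.33 ± 0.10 (adjusted p = 0.0825, background 6.28%) that passed with the replicate block (adjusted p = 0.00168) with DESeq2 (0.0228), in the fit of these 2 groups alone (0.0497) and in replicates 1 and 2 (0.032, where 4.46% of genes were called).

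*Slc3a2* footprints spread more. They ran from 281 to 362 CPM in control torin 1 (median 311) and from 287 to 628 in Ctu1 iKO torin 1 (median 346), with a log2 change of 0.31 ± 0.14 (adjusted p = 0.182). The 2 highest of these 12 libraries were Ctu1 iKO torin 1 replicates 1 and 2, with 628 and 447 CPM. Replicates 1 and 2 gave a change of 0.56 ± 0.17 (adjusted p = 0.195) and replicates 3 to 6 one of 0.12 ± 0.08 (0.356). With the replicate block it was called (0.28 ± 0.09, adjusted p = 0.0376). In control cells torin 1 left 321 ± 33.0 CPM (SD, n = 6) against 386 ± 30.6 with DMSO, a log2 change of -0.27 ± 0.14 (adjusted p = 0.314) that was called with the block (adjusted p = 0.045) and in replicates 3 to 6 (-0.32 ± 0.08, 0.0171).

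*Slc7a11*, the cystine carrier, had the smallest footprint SD relative to its mean in each of the 4 groups. Control torin 1 ran from 176.5 to 216.5 CPM with a median of 203, and Ctu1 iKO torin 1 from 147 to 179 with a median of 160.5. The groups overlapped by control replicate 2 and Ctu1 iKO replicate 5. Ctu1 loss with torin 1 lowered it by 0.31 on the log2 scale (SE 0.08, edgeR adjusted p = 0.0153), and the call held in all 23 fits without 1 library, but not with scaling by library totals (-0.265, adjusted p = 0.051), in the fit of these 2 groups alone (-0.31, 0.065) or in replicates 1 to 3 (-0.31, 0.324). Within replicates 3 to 6 the change was -0.36 ± 0.07 (adjusted p = 0.00469) and within replicates 1 and 2 -0.22 ± 0.14 (0.525). With DMSO it was -0.18 ± 0.08 (adjusted p = 0.296), from 189 ± 11.5 CPM (SD, n = 6) to 167 ± 16.6 (SD, n = 5). Torin 1 changed its footprints by 0.08 ± 0.08 in control and -0.05 ± 0.08 in Ctu1 iKO cells, with adjusted p of 0.6755 and 0.7745. Its RNA was low, at 35.6 to 42.8 CPM in control DMSO and 38.8 to 53.7 in control torin 1, and showed the same size of change with Ctu1 loss under torin 1 (-0.30 ± 0.16, adjusted p = 0.252), which passed with the block (adjusted p = 0.00192). Torin 1 in control gave an RNA change of 0.25 ± 0.16 (0.3993), with the block 0.24 ± 0.06 (0.00762).

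*Slc7a5*, the leucine carrier, was called in no comparison in the edgeR fit of all libraries without a block. Its footprints were 94.3 ± 11.6 CPM in control DMSO (SD, n = 6), 97.8 ± 17.3 in Ctu1 iKO DMSO (n = 5), 81.1 ± 19.2 in control torin 1 and 76.7 ± 20.9 in Ctu1 iKO torin 1. All 4 groups overlapped. The torin 1 changes were -0.22 ± 0.16 in control (edgeR adjusted p = 0.516) and -0.35 ± 0.17 in Ctu1 iKO cells (0.179). Replicates 1 and 2 were the highest libraries of every group. Within replicates 3 to 6 torin 1 lowered it in both genotypes, by 0.32 (SE 0.09, adjusted p = 0.0395) and 0.40 (SE 0.10, 0.0124), while replicates 1 and 2 gave -0.06 ± 0.22 and -0.22 ± 0.22. Without Ctu1 iKO torin 1 replicate 1, at 117 CPM, the change in Ctu1 iKO cells was -0.51 (adjusted p = 0.0227). Ctu1 loss left footprint changes of 0.05 ± 0.16 with DMSO and -0.08 ± 0.16 with torin 1. Its RNA ran from 134 to 220.1 CPM over the 12 libraries, with torin 1 changes of -0.20 ± 0.17 in both genotypes (adjusted p = 0.534 and 0.462), called with the block (adjusted p = 0.0302 and 0.0205).

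*Slc7a1*, the arginine carrier, was also not called in that fit. Torin 1 gave 144 ± 25.4 CPM against 184 ± 28.3 in control cells and 136 ± 38.0 against 177 ± 32.0 in Ctu1 iKO cells, log2 changes of -0.35 ± 0.16 (edgeR adjusted p = 0.218) and -0.38 ± 0.16 (0.138). Within replicates 3 to 6 both were called (-0.38 ± 0.09, adjusted p = 0.0155, and -0.45 ± 0.10, 0.00594), and the block called the first (-0.35 ± 0.07, 0.00188). Replicates 1 and 2 gave -0.29 ± 0.16 and -0.22 ± 0.16. Without Ctu1 iKO torin 1 replicate 1 the change in Ctu1 iKO cells was -0.515 (0.0258). Its RNA changes were -0.30 ± 0.26 and -0.31 ± 0.26, both called with the block (adjusted p = 0.0117 and 0.00712). With Ctu1 loss its footprint and RNA changes lay between -0.08 and -0.03 (adjusted p at least 0.821).

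*Slc38a2*, which imports glutamine and alanine with sodium, was the transporter with the highest positive footprint change under torin 1 in control cells. It had 207 ± 35.5 CPM with torin 1 and 172 ± 20.7 with DMSO (SD, n = 6), a log2 change of 0.27 ± 0.16 (edgeR adjusted p = 0.408), and in Ctu1 iKO cells 169 ± 56.2 against 134 ± 25.5 (0.33 ± 0.17, 0.235). With Ctu1 loss the signs were opposite, -0.36 ± 0.17 with DMSO (0.308) and -0.30 ± 0.16 with torin 1 (0.2945). The torin 1 groups spread widely, from 162 to 250.4 CPM in control and from 126 to 270.4 in Ctu1 iKO, with replicates 1 and 2 on top in each. Within replicates 3 to 6 Ctu1 loss lowered *Slc38a2* with DMSO (-0.47 ± 0.09, adjusted p = 0.0101) and with torin 1 (-0.46 ± 0.09, 0.00289), and the block called the second (-0.33 ± 0.09, 0.012). Replicates 1 and 2 gave -0.27 ± 0.16 and -0.10 ± 0.16. Without Ctu1 iKO torin 1 replicate 1 (270.4 CPM) the change with torin 1 was -0.48 (0.0308). RNA changes had the same signs and were smaller, from -0.23 ± 0.11 (Ctu1 loss with torin 1, adjusted p = 0.191, with the block 0.012) to 0.15 ± 0.11 (torin 1 in control, 0.437).

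*Slc1a5* and *Slc1a4*, the neutral amino acid exchangers, had the lowest footprint levels per kilobase in control DMSO and were not called in the edgeR fit of all libraries without a block. *Slc1a5* footprints had 53.9 ± 5.402 CPM in control DMSO, 56.9 ± 15.5 in Ctu1 iKO DMSO, 57.6 ± 8.54 in control torin 1 and 72.0 ± 26.8 in Ctu1 iKO torin 1. The last group held 119 CPM in replicate 1, 89.3 in replicate 2 and 53.2 to 59.5 in the other 4. Its changes of 0.34 ± 0.19 with torin 1 in Ctu1 iKO and 0.31 ± 0.18 with Ctu1 loss under torin 1 (edgeR adjusted p = 0.283 and 0.325) were 0.26 ± 0.11 and 0.08 ± 0.10 in replicates 3 to 6. *Slc1a4* footprints lay between 28.0 and 70.0 CPM over all 23 libraries, and its 4 footprint changes ran from -0.20 ± 0.19 to 0.06 ± 0.20. RNA of both genes changed by no more than 0.27 in size, with adjusted p at least 0.273. With the replicate block 2 of these RNA changes were called for Ctu1 loss with torin 1, *Slc1a5* (0.25 ± 0.08, adjusted p = 0.0255) and *Slc1a4* (0.21 ± 0.06, 0.0238), and 1 for torin 1 in control, *Slc1a4* (-0.25 ± 0.06, 0.0096). In RNA of replicates 1 and 2 alone, without the block, *Slc1a4* was also called for Ctu1 loss with torin 1 (0.29 ± 0.08, adjusted p = 0.0437), where 16.4% of genes were called.

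**Figure D3:**
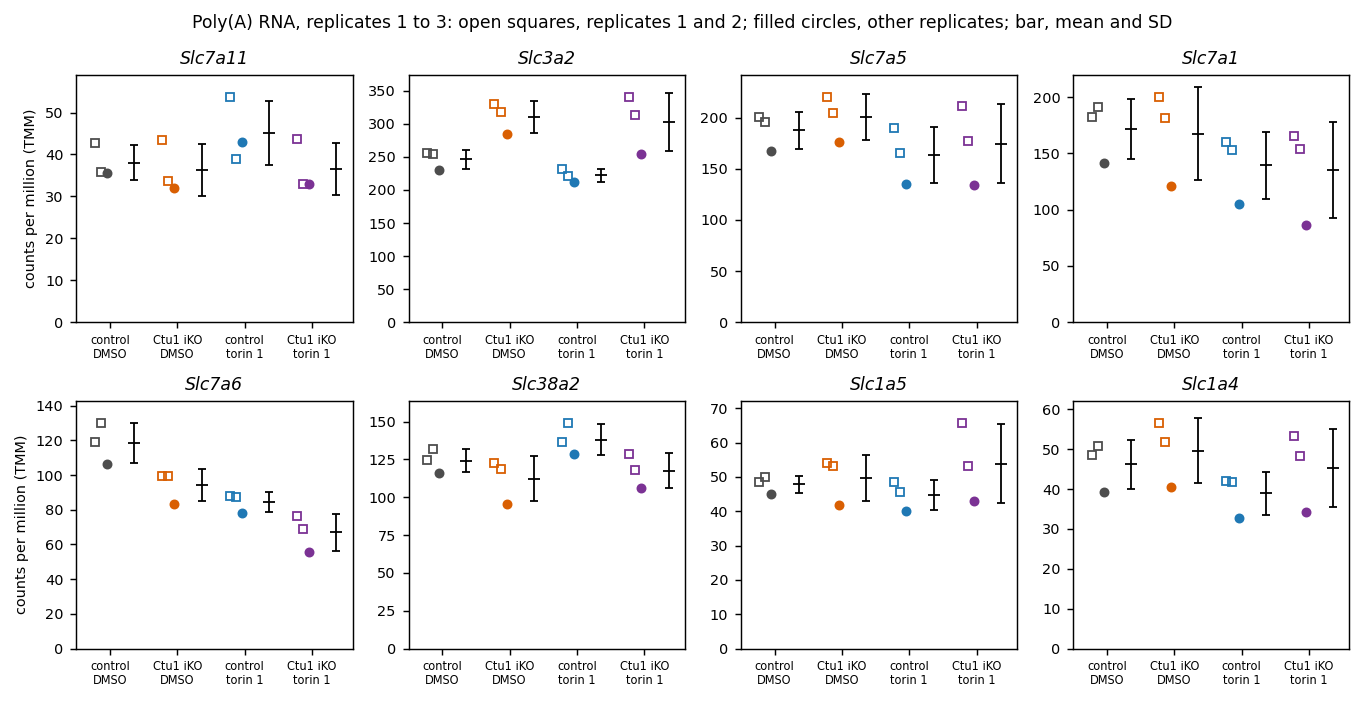
Poly(A) RNA of each transporter in replicates 1 to 3, in CPM on axes that start at 0, with open squares for replicates 1 and 2, a filled circle for replicate 3 and a bar for the mean with its SD of 3 libraries. *Slc7a6* is lowest in Ctu1 iKO torin 1 (55.6 to 76.35), and *Slc3a2* is higher in Ctu1 iKO than in control with either treatment.

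Over the 8 transporters few changes were called. In footprints 1 of 8 was called lower with torin 1 in control and 1 lower with torin 1 in Ctu1 iKO. With Ctu1 loss 0 were called with DMSO and 2 lower with torin 1. Of all genes 4.06%, 6.36%, 1.09% and 4.6% were called lower there. At an unadjusted p under 0.05, in either direction, the counts were 2, 3, 3 and 3 of 8. Of all 9857 genes 1860, 2507, 1536 and 2223 reached it. The median log2 change of the 8 was -0.21, -0.07, -0.08 and -0.08, against 0.02, 0.02, -0.0034 and 0.01 over all genes. In RNA 1 of 8 was called in each comparison except Ctu1 loss with DMSO, where 0 were (1 with DESeq2). The RNA medians were -0.17, -0.08, 0.01 and 0.02. At an unadjusted p under 0.05 the RNA counts were 1, 1, 2 and 2 of 8. Of all 9616 genes 2364, 2974, 2148 and 2591 reached it. Of all genes 6.67%, 9.16%, 2.77% and 4.71% were called lower in RNA and 5.17%, 8.69%, 3.51% and 5.38% higher. DESeq2 called 1, 1, 1 and 2 of 8 in footprints, where it called 9.21%, 14.8%, 5.1% and 11.4% of genes, and 1 of 8 in each RNA comparison, where it called 17.1%, 23.9%, 13.3% and 17.6%. With the replicate block, footprints gave 3 of 8 for torin 1 in control, where 13.9% of genes were then called, and 4 of 8 for Ctu1 loss with torin 1 (17.4%). RNA gave 5 of 8 for torin 1 in control (32.3%), 3 for torin 1 in Ctu1 iKO (41%), 2 for Ctu1 loss with DMSO (29.2%) and 6 for Ctu1 loss with torin 1 (35.9%). The torin 1 and Ctu1 comparisons share libraries, so these counts are not independent. The difference between the torin 1 effects of the 2 genotypes was called for 0 of 8 in footprints (background 0.639%, all lower). In RNA it was called for 0 of 8 as well (0%). No transporter reached an unadjusted p under 0.05 in either, where 460 of 9857 genes did in footprints and 140 of 9616 in RNA. DESeq2 also called 0 of 8 in both (1.09% and 0.0312% of genes).

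**Figure D4:**
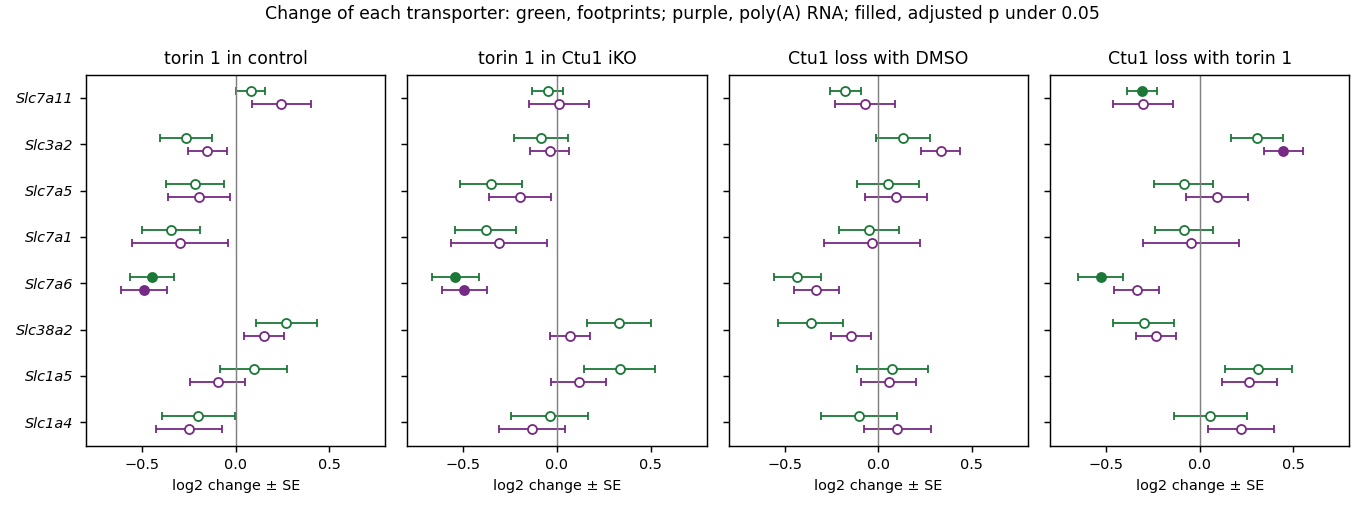
Log2 change of each transporter in the 4 comparisons, with its standard error, for footprints (green) and poly(A) RNA (purple). Filled points have an edgeR adjusted p under 0.05. *Slc7a6* lies left of 0 in every panel, from -0.54 to -0.33, and *Slc3a2* RNA lies right of 0 with Ctu1 loss (0.33 and 0.45).

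Translational efficiency, the change of footprints beyond that of RNA, was called for 0 of 8 transporters in every comparison, where 1.13% of genes were called for torin 1 in control, 2.61% for torin 1 in Ctu1 iKO, 0.0104% for Ctu1 loss with DMSO, 0.759% for Ctu1 loss with torin 1 and 0.0312% for the difference. No transporter had an unadjusted p under 0.05, where 461, 1137, 235, 619 and 344 of 9615 genes did in the same order. DESeq2 called 0 as well, where it called 1.63%, 4.49%, 0.0832%, 1.57% and 0.322% of genes. In the 4 comparisons the lowest and highest changes were -0.23 ± 0.23 (*Slc7a6*, Ctu1 loss with torin 1, adjusted p = 0.9995) and 0.40 ± 0.29 (*Slc38a2*, torin 1 in Ctu1 iKO, 0.692). Standard errors ran from 0.21 for *Slc7a11* to 0.42 for *Slc1a4* with 3 replicates of each assay. In counts simulated for torin 1 in control, this fit recovered 6% of 1.5-fold efficiency changes and 45% of 2-fold ones. A count of 0 therefore says little about changes of such size. For *Slc7a6* the efficiency change was 0.12 ± 0.23 with torin 1 in control and 0.00 ± 0.23 with Ctu1 loss and DMSO.

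Replicates 1 and 2 were higher than every other replicate of their group in all 4 groups for footprints of *Slc7a5*, *Slc7a1* and *Slc38a2*, and in 3 of 4 for *Slc3a2*, *Slc1a5* and *Slc1a4*. The mean log2 difference reached 0.90 (*Slc1a5*, Ctu1 iKO torin 1), larger in size than every main change of a transporter given here. *Slc7a11* was the exception, with replicates 1 and 2 lower in all 4 groups by means (-0.26 to -0.07). In RNA, replicates 1 and 2 lay above replicate 3 in all 4 groups for the 7 other transporters, by 0.09 to 0.88. The labels give no date or batch for this split, and the methods do not tie the days they mention to replicate numbers. Across the 23 footprint libraries, which share conditions and depth, log2 CPM of *Slc7a5* and *Slc7a1* correlated with r = 0.925, *Slc7a5* and *Slc1a4* with r = 0.833, and *Slc7a11* correlated negatively with *Slc3a2* (r = -0.516) and *Slc1a5* (-0.485). The genes most like each transporter by this measure were *Ecpas* (0.91) and *Cse1l* (0.888) for *Slc7a11*, *Ccn2* (0.884) and *Crtap* (0.875) for *Slc3a2*, *Txndc5* (0.906) and *Fkbp10* (0.905) for *Slc7a5*, and *Fkbp10* (0.893) and *Scd3* (0.889) for *Slc7a1*. For *Slc7a6* they were *Lin7c* (0.921) and *Gpi1* (0.916), for *Slc38a2* *Insr* (0.921) and *Slc5a3* (0.92), for *Slc1a5* *Itgav* (0.945) and *Fn1* (0.929), and for *Slc1a4* *Nptn* (0.895) and *Tpcn1* (0.881).

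Other genes of the pathway were followed as lists. Of 28 other amino acid transporters of the plasma membrane 6 were tested (*Slc6a6*, *Slc6a9*, *Slc7a3*, *Slc16a10*, *Slc38a1* and *Slc38a4*), and 0 were called in footprints or RNA in any comparison by the edgeR fit without a block. With the block, RNA of 2 was called higher for Ctu1 loss with DMSO (29.2% of all genes called), of 3 higher for Ctu1 loss with torin 1 (35.9%), and of 1 lower for torin 1 in control (32.3%) and in Ctu1 iKO (41%). DESeq2 called RNA of 2 higher for Ctu1 loss with torin 1 (17.6%), and library totals called footprints of 1 higher for torin 1 in Ctu1 iKO, where that scaling called 14.9% of genes. Among changes with an unadjusted p under 0.05, named after their values were seen, *Slc6a6*, the taurine carrier, had footprint changes of -0.50 ± 0.19 with Ctu1 loss and DMSO and 0.48 ± 0.19 with torin 1 in Ctu1 iKO (adjusted p = 0.164 and 0.1). *Slc7a3*, another cationic carrier, had RNA changes of 0.80 ± 0.30 with Ctu1 loss and DMSO and 0.86 ± 0.30 with Ctu1 loss and torin 1 (adjusted p = 0.138 and 0.0929). With Ctu1 loss and torin 1, RNA of *Slc16a10* changed by 0.38 ± 0.13 and of *Slc38a4* by 0.43 ± 0.20 (0.0896 and 0.181). *Slc38a1* RNA went the other way, by -0.31 ± 0.14 with torin 1 in control (0.195).

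Many genes of a list of ATF4 and its targets rose with Ctu1 loss. Of 38 listed genes 34 were tested, and the 8 transporters were not among them. In footprints 16 rose and 0 fell with Ctu1 loss and DMSO, a median change of 0.42 against -0.0034 over all genes, where 1.67% of genes rose. With torin 1, 14 rose and 0 fell (median 0.29, background 3.95%). In RNA 15 rose and 0 fell with either treatment (medians 0.38 and 0.37, background 3.51% and 5.38%). With the replicate block 29 and 27 rose in RNA, where 29.2% and 35.9% of genes were called in either direction, and 0 fell. *Atf4* itself rose in footprints by 0.99 ± 0.11 with DMSO (edgeR adjusted p = 1.185e-05), *Atf5* by 1.74 ± 0.22, *Gadd45a* by 1.71 ± 0.28 and *Trib3*, a pseudokinase that restrains Akt, by 1.20 ± 0.21. In replicates 3 to 6 alone 19 rose in footprints with DMSO, where 4.56% of all genes were called, and in replicates 1 and 2 alone, where 0% of genes were called, the median change was 0.44. In the edgeR fit of all libraries without a block, 1 of the 8 transporters was called higher with Ctu1 loss, *Slc3a2* in RNA with torin 1. With torin 1, 5 of the 34 fell in footprints of control cells and 12 in those of Ctu1 iKO cells, where 4.06% and 6.36% of genes fell, and 0 rose (with the block, 9 fell and 0 rose in control, where 13.9% of genes were called), with *Trib3* at -1.42 ± 0.21 and -1.25 ± 0.21. The difference between the list and the transporters was not tested, and this list was assembled with earlier results of these data known.

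**Figure D5:**
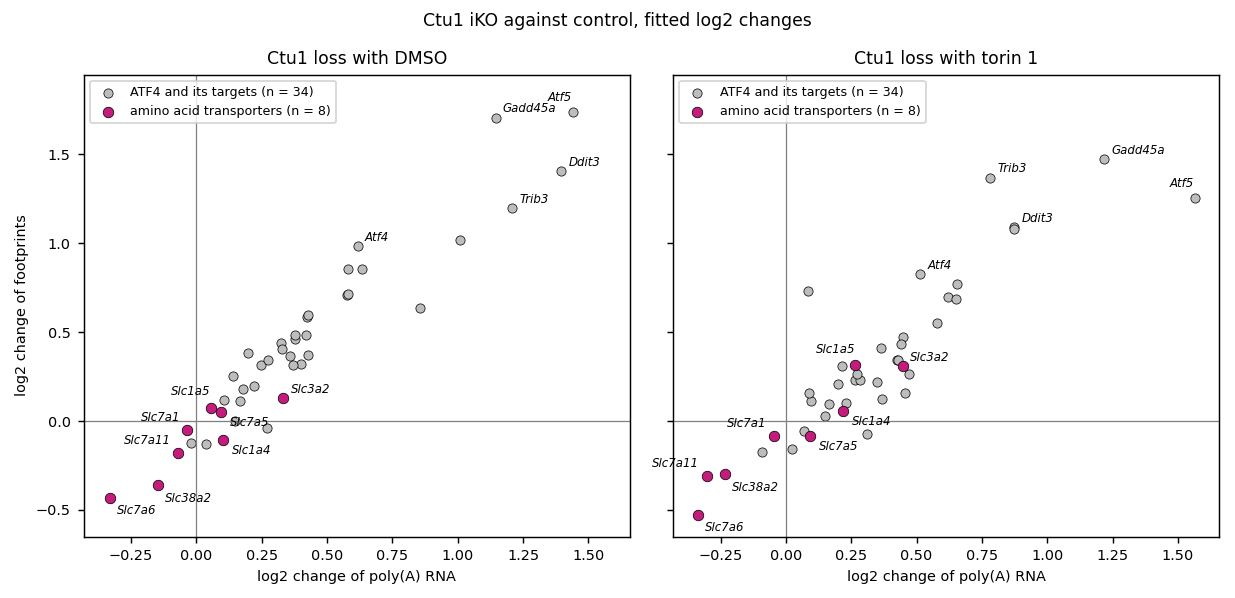
Log2 change with Ctu1 loss in poly(A) RNA (horizontal axis) and footprints (vertical axis), with DMSO on the left and torin 1 on the right, for the 8 transporters (magenta) and 34 genes of the ATF4 list (grey). *Gadd45a* and *Atf5* lie at 1.26 or higher in footprints in both panels, and the transporters lie between -0.53 and 0.31 in footprints.

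Lysosomal amino acid transporters and the amino acid sensing machinery of mTORC1 (30 of 39 tested) had 4 genes higher and 0 lower in footprints with torin 1 in control, and likewise 4 and 0 in Ctu1 iKO, where 2.85% and 5.68% of genes rose. Library totals gave 7 higher and 0 lower in each genotype (8.58% and 14.9% of genes called), DESeq2 4 higher and 1 lower in control and 6 and 1 in Ctu1 iKO, and the block 5 and 1 in control (9.21%, 14.8% and 13.9% of genes called). *Fnip1*, a partner of folliculin, rose by 1.34 ± 0.19 (edgeR adjusted p = 1.86e-05) and 1.04 ± 0.20, *Ctns*, which exports cystine from lysosomes, by 0.74 ± 0.22 and 1.17 ± 0.23, and *Flcn* by 0.60 ± 0.12 and 0.70 ± 0.12. Ctu1 loss raised 2 of the 30 with DMSO (*Lamtor4* by 0.66 ± 0.15 and *Fnip1* by 0.75 ± 0.19) and 3 with torin 1, where 1.67% and 3.95% of all genes rose. With the block the count with torin 1 was 7 higher and 1 lower, where 17.4% of all genes were called. Among 20 tested genes of a list on cystine, glutathione, antioxidant and iron handling, Ctu1 loss with torin 1 raised 3 in footprints (*Cth* by 0.65 ± 0.15, *Gss* by 0.47 ± 0.10 and *Gpx1* by 0.45 ± 0.11) and lowered 3, among them *Tfrc*, the transferrin receptor (-0.69 ± 0.15), where 3.95% of all genes rose and 4.6% fell. In RNA 3 of the 20 rose and 4 fell with Ctu1 loss and DMSO (3.51% and 2.77% of all genes), and 3 rose and 5 fell with torin 1 (5.38% and 4.71%). With the block 3 rose and 7 fell with either treatment (29.2% and 35.9% of genes called). Among them *Gclc*, the catalytic subunit of the first step of glutathione synthesis, fell in RNA with Ctu1 loss by 0.43 with DMSO (SE 0.07, edgeR adjusted p = 0.00721) and by 0.53 with torin 1 (SE 0.07, 0.00174). *Cth*, which makes cysteine from cystathionine, rose in RNA by 0.65 ± 0.11 with DMSO and 0.54 ± 0.11 with torin 1.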

How the data were processed

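Ribosome footprints and poly(A) RNA of EPP2 cells were sequenced, and the deposited tables hold raw read counts per gene, which the authors made after adapter trimming and alignment. The submitters' processing notes name STAR 2.5.3a, UMI-tools 1.1.1 and cutadapt 3.4 with builds GRCm38 and mm10. Every entry reaches 100 footprints in some library, and RNA counts are all even while 48.7% of footprint counts are odd. For footprint reads the study's methods name STAR with its own gene counting, and a human genome build where the processing notes name mouse builds. The methods do not say that the deposited footprint counts came from that output. The counter of the RNA reads, and the strand setting of both, are not given in the sources used here.

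Members and gene lists were chosen with earlier results of these data known. Symbols listed once in the tables of both treatments (9857) and averaging 10 counts or more entered edgeR 4.0.16 (R 4.3.3), one quasi-likelihood fit over the 4 groups per assay with TMM scaling and Benjamini-Hochberg adjustment over all genes, called at an adjusted p under 0.05. Translational efficiency is the interaction of assay and group over replicates 1 to 3. RNA replicates 4 to 6 entered only an alternative, since 6 of 11 lay against their labels. Values after ± are standard errors for log2 changes and SDs where stated. Codons, lengths and coordinates come from GENCODE M21, and tables and plots were made with Python 3.11.15, pandas 2.3.3, numpy 2.4.6 and matplotlib 3.10.9. From each list the called genes averaging 100 counts or more were eligible to be named, up to 4 with the largest change per direction and comparison. Like genes are the 2 with the highest r per member, with the same minimum.

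Same-numbered libraries deviated together (r over 0.1 in every pair) in all RNA comparisons (0.488 to 0.837). For footprints they did so for torin 1 in control (0.435 to 0.641) and Ctu1 loss with torin 1 (0.319 to 0.547). In these comparisons the replicate number is used as a block beside the result. Libraries with different numbers were not compared. A split of replicates 1 and 2 from the rest also gives positive r, so a number is not shown to mark a pair. Each kind of fit was tested on counts simulated with known changes for torin 1 in control. The footprint, RNA and efficiency fits recovered 69%, 48% and 6% of 1.5-fold changes, and 100%, 100% and 45% of 2-fold ones. Alternatives were DESeq2 1.42.0, library totals, the block, fits of 2 groups, subsets of replicates and leaving out each library.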

Additional observations from a re-analysis of the deposited data

Results flagged for a closer look

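Among 32 groups of footprint values tested (RNA groups hold 3 libraries and were not tested) for a library far from the rest, 2 were flagged, and chance flags about 1 in 20 groups. *Slc7a5* had 117.4 footprint CPM in Ctu1 iKO torin 1 replicate 1, against 79.35 in the next library. *Slc7a6* had 126.5 footprint CPM in control torin 1 replicate 1, against 101.8 in the next.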

How the results depend on the processing

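Of the counts of called transporters, 304 stayed within 1.5 times of the reported count across alternatives and 54 did not. Efficiency counts were 0 in every fit. DESeq2 called 1 for Ctu1 loss with DMSO in footprints and 1 in RNA (5.1% and 13.3% of all genes called). Library totals called 0 in footprints for torin 1 in control and 1 for Ctu1 loss with torin 1 (8.58% and 8.94%). With the replicate block, footprints gave 3, 5, 2 and 4 (torin 1 in control, torin 1 in Ctu1 iKO, Ctu1 loss with DMSO, Ctu1 loss with torin 1; 13.9%, 21.3%, 9.72% and 17.4% of all genes called) and RNA 5, 3, 2 and 6 (32.3%, 41%, 29.2% and 35.9%). For torin 1 in Ctu1 iKO and Ctu1 loss with DMSO same-numbered footprint libraries did not all deviate together, with correlations from -0.0328 to 0.42 and from -0.101 to 0.463. A term for replicates 1 and 2 against the rest gave 2, 4, 2 and 4 in footprints (11.5%, 18.3%, 7.18% and 14.5% of all genes). Fits of 2 groups gave 1 in footprints for Ctu1 loss with torin 1 (4.83% of all genes called). In RNA they gave 0 for torin 1 in Ctu1 iKO, 1 for Ctu1 loss with DMSO and 0 for Ctu1 loss with torin 1 (8.25%, 5.12% and 1.31%). Footprints of replicates 1 to 3 gave 0 for torin 1 in control, torin 1 in Ctu1 iKO and Ctu1 loss with torin 1 (1.53%, 3.65% and 1.17% of all genes called). Those of replicates 3 to 6 gave 4, 3 and 2 for torin 1 in control, torin 1 in Ctu1 iKO and Ctu1 loss with DMSO (7.94%, 11.5% and 4.56%). Those of replicates 1 and 2, a choice made after seeing the data, gave 0. In them 1.22%, 2.41%, 0% and 0.834% of genes were called for torin 1 in control, torin 1 in Ctu1 iKO, Ctu1 loss with DMSO and with torin 1. RNA of replicates 1 and 2 gave 1 and 2 for Ctu1 loss with DMSO and with torin 1 (4.46% and 16.4% of all genes called). RNA of all replicates as labelled gave 0 for torin 1 in control and in Ctu1 iKO (1.26% and 0%). It gave 1 for Ctu1 loss with DMSO and 0 for Ctu1 loss with torin 1 (15.8% and 0%). Leaving out each library gave footprint counts of 0 to 1, 1 to 3, 0 to 1 and 2 to 3, and RNA counts of 0 to 1 in each comparison. The cause of these differences was not tested.

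Of single values, 2771 kept direction and side of the threshold (a value not called that changed sign but moved from the reported value by less than that value's SE counts as kept), 53 gained a call, 29 lost one and 11 reversed, none of these called. They were *Slc7a11* footprints with torin 1 in Ctu1 iKO (0.0392 with library totals, 0.0523 in replicates 1 and 2) and in the difference of torin 1 effects (0.0264 in replicates 1 and 2), *Slc1a5* footprints with Ctu1 loss and DMSO (-0.189 in replicates 3 to 6), *Slc3a2* footprints with torin 1 in Ctu1 iKO (0.144 in replicates 1 and 2), RNA with torin 1 in Ctu1 iKO of *Slc1a5* (-0.0503 to 0.257 over fits without 1 library, -0.0343 with all replicates as labelled) and *Slc3a2* (-0.131 to 0.0741 over such fits), and, with all RNA replicates as labelled, the difference of torin 1 effects for *Slc3a2* (-0.111), *Slc38a2* (0.0766) and *Slc7a6* (0.388).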
